A study of Mus musculus with 4 samples.

Results

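Gata4 peaks were described at 9 genes of retinoic acid synthesis and response, *Aldh1a1*, *Aldh1a2*, *Aldh1a3*, *Stra6*, *Crabp2*, *Rara*, *Rarb*, *Rarg* and *Cyp26a1*, out of 22225 protein-coding genes in the annotation. A peak was assigned to a gene when it lay within 50 kb of the gene on mm9, which also took in every peak that the authors had given the name of the gene, within 5 kb. Of 20410 peaks in the list of WT Flk1(+) cells, 45 met this rule, and of 22733 in the list of DKO Flk1(+) cells, 38 did.

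The lists came from ChIP-seq of mouse ES cells of the J1 line, of a 129 background, made into mesoderm on OP9 stroma cells. WT Flk1(+) cells (clone J1G4.2) and Dnmt3a-/-Dnmt3b-/- (DKO) Flk1(+) cells (clone 16G4.3) expressed Gata4GR, a fusion of Gata4 with the hormone-binding part of the human glucocorticoid receptor, from a CAG promoter, and received 100 nM dexamethasone (Dex) for 3 hours at day 4.5, before magnetic sorting for the mesoderm receptor Flk1. WT ES and DKO ES cells, undifferentiated, carrying Gata4GR and without Dex, were the background of each genotype. Chromatin was precipitated with a mix of 3 Gata4 antibodies, and each of the 4 conditions is 1 library, with 1 clone per genotype in the Flk1(+) cells. No condition has a replicate, so every difference between WT and DKO given here is a difference between libraries, with no test. Clone and genotype cannot be told apart. The lists hold no expression values, so the sorted cells could not be checked against their markers.

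For each peak the lists give a height in the profile of the Flk1(+) library, a height in the ES profile of the same genotype, the ratio of both (enrichment) and a rank by q value, in which 1 is the best. The lowest height was 5.0 and the lowest enrichment 3.0 in either list. Whether heights were scaled for depth is not known, and the read depth behind them cannot be read from the lists. The study states more mapped reads for the DKO Flk1(+) library than for the WT Flk1(+) library. A peak is called shared when its 501-bp window overlaps a window of the other list, and WT-only or DKO-only when none does. The lists give no height at a place where they call no peak, so a WT-only peak does not show that DKO cells lacked signal there.

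Retinoic acid is made from vitamin A. Retinol enters cells through the receptor Stra6 and is oxidised to retinaldehyde and then, by the enzymes Aldh1a1, Aldh1a2 and Aldh1a3, to retinoic acid, which Crabp2 carries to the nuclear receptors Rara, Rarb and Rarg. These bind, with the retinoid X receptors, to direct repeats of a half-site such as AGGTCA, and Cyp26a1 oxidises retinoic acid and so removes it. In the embryo, Aldh1a2 in mesoderm is the main source of retinoic acid, and *Rarb* and *Cyp26a1* are well-known targets of the receptors.

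The sequences of the main peaks are given first, as stretches cut from the deposited 501-bp windows, 5′ to 3′ on the plus strand of mm9. Matches to WGATAA, the Gata motif (AGATAA or TGATAA on either strand), are in capitals. Counts of motifs and CpGs in the text are for the whole window, unless the stretch shown is named. The tallest peak within 5 kb that held the motif is shown for 6 of the genes, and where the lists shared it the WT peak stands for both.
*Stra6*, WT list, chr9:57968295-57968583: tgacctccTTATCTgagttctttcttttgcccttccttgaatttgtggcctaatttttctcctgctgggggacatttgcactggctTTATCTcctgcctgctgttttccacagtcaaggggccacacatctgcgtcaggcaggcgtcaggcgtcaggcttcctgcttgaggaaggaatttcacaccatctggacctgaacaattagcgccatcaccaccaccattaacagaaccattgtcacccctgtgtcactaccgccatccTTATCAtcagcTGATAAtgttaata
*Rara*, WT list, chr11:98786776-98786856: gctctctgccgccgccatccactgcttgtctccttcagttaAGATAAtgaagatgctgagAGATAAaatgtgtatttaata
*Rarb*, WT list, chr14:17430871-17430959: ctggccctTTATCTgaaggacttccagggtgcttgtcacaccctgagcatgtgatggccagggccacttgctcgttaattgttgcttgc
*Aldh1a3*, WT list, chr7:73551920-73552010: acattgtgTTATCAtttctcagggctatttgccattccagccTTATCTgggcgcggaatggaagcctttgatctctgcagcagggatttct
*Aldh1a2*, WT list, chr9:71077845-71078101: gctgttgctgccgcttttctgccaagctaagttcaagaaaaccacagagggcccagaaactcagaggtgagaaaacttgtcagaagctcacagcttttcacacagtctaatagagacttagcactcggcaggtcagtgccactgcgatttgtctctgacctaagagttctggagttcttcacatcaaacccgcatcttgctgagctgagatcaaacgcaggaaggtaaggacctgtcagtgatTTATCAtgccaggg
*Rarg*, DKO list, chr15:102076885-102077085: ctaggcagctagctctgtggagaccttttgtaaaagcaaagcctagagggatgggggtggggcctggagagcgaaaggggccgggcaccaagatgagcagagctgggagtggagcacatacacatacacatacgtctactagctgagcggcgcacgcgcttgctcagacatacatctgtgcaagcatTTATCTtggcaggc

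Peaks found in 1 list within 1 kb of a start site of these genes, noncoding transcripts included, are shown next, with WGATAA in capitals in the windows that held it.
*Aldh1a2*, WT list, chr9:71064160-71064407: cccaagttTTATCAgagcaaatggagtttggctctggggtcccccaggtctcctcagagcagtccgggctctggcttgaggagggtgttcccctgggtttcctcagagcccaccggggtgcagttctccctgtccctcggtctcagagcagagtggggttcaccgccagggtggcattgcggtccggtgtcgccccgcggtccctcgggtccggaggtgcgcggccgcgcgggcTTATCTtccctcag
*Stra6*, WT list, chr9:57911460-57911540: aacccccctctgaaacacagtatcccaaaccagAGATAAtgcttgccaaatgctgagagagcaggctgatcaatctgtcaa
*Rarg*, DKO list, chr15:102077064-102077346: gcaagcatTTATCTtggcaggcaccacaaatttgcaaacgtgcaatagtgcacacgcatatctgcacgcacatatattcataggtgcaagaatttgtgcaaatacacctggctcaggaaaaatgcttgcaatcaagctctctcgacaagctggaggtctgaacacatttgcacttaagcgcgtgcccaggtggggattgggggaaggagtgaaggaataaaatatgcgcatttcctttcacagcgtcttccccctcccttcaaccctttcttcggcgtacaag
In the windows without WGATAA, capitals mark the CpGs instead, the sites that Dnmt3a and Dnmt3b can methylate.
*Cyp26a1*, DKO list, chr19:37772835-37772915: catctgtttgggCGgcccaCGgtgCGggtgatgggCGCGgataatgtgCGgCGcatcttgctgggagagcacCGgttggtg
*Rara*, DKO list, chr11:98799206-98799286: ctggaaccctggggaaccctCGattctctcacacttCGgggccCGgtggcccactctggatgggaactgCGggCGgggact
*Rara*, DKO list, chr11:98798719-98798799: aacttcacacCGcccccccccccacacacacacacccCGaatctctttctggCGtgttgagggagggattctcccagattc
*Rara*, DKO list, chr11:98798504-98798584: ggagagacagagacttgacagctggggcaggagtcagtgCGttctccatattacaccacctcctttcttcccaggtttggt
*Rara*, WT list, chr11:98822485-98822565: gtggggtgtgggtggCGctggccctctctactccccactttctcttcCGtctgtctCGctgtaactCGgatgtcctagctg

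Of the 9 genes, 8 had a WT peak within 50 kb and a DKO peak was within that distance of 7, where 67.1% and 70.4% of all protein-coding genes had one. Within 5 kb of the gene, WT peaks were found at 6 genes and DKO peaks at 6, where 39.4% and 49.1% of all genes had one. A count within 5 kb of the start of the gene's longest span leaves out other start sites, such as that of Rarg-002. By it, 4 of the 9 genes had a WT peak and 3 a DKO peak, and the share of all genes is not given for this rule. These shares are over genes of all lengths, and *Rarb* (388026 bp), *Stra6* (90209 bp) and *Aldh1a2* (80455 bp) are longer than 98.5%, 87.9% and 86.3% of genes. Within 1 kb of the start site of a transcript with a consensus coding sequence (CCDS), or of any coding transcript where a gene has none, WT peaks lay at 2 genes (*Aldh1a2* and *Rara*) and DKO peaks at 3 (*Rara*, *Rarg* and *Cyp26a1*), beside 22.6% and 35.7% of all genes. The median gene of the 9 had 5 WT and 3 DKO peaks within 50 kb, and the median over all genes was 1 and 2.

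**Figure D1:**
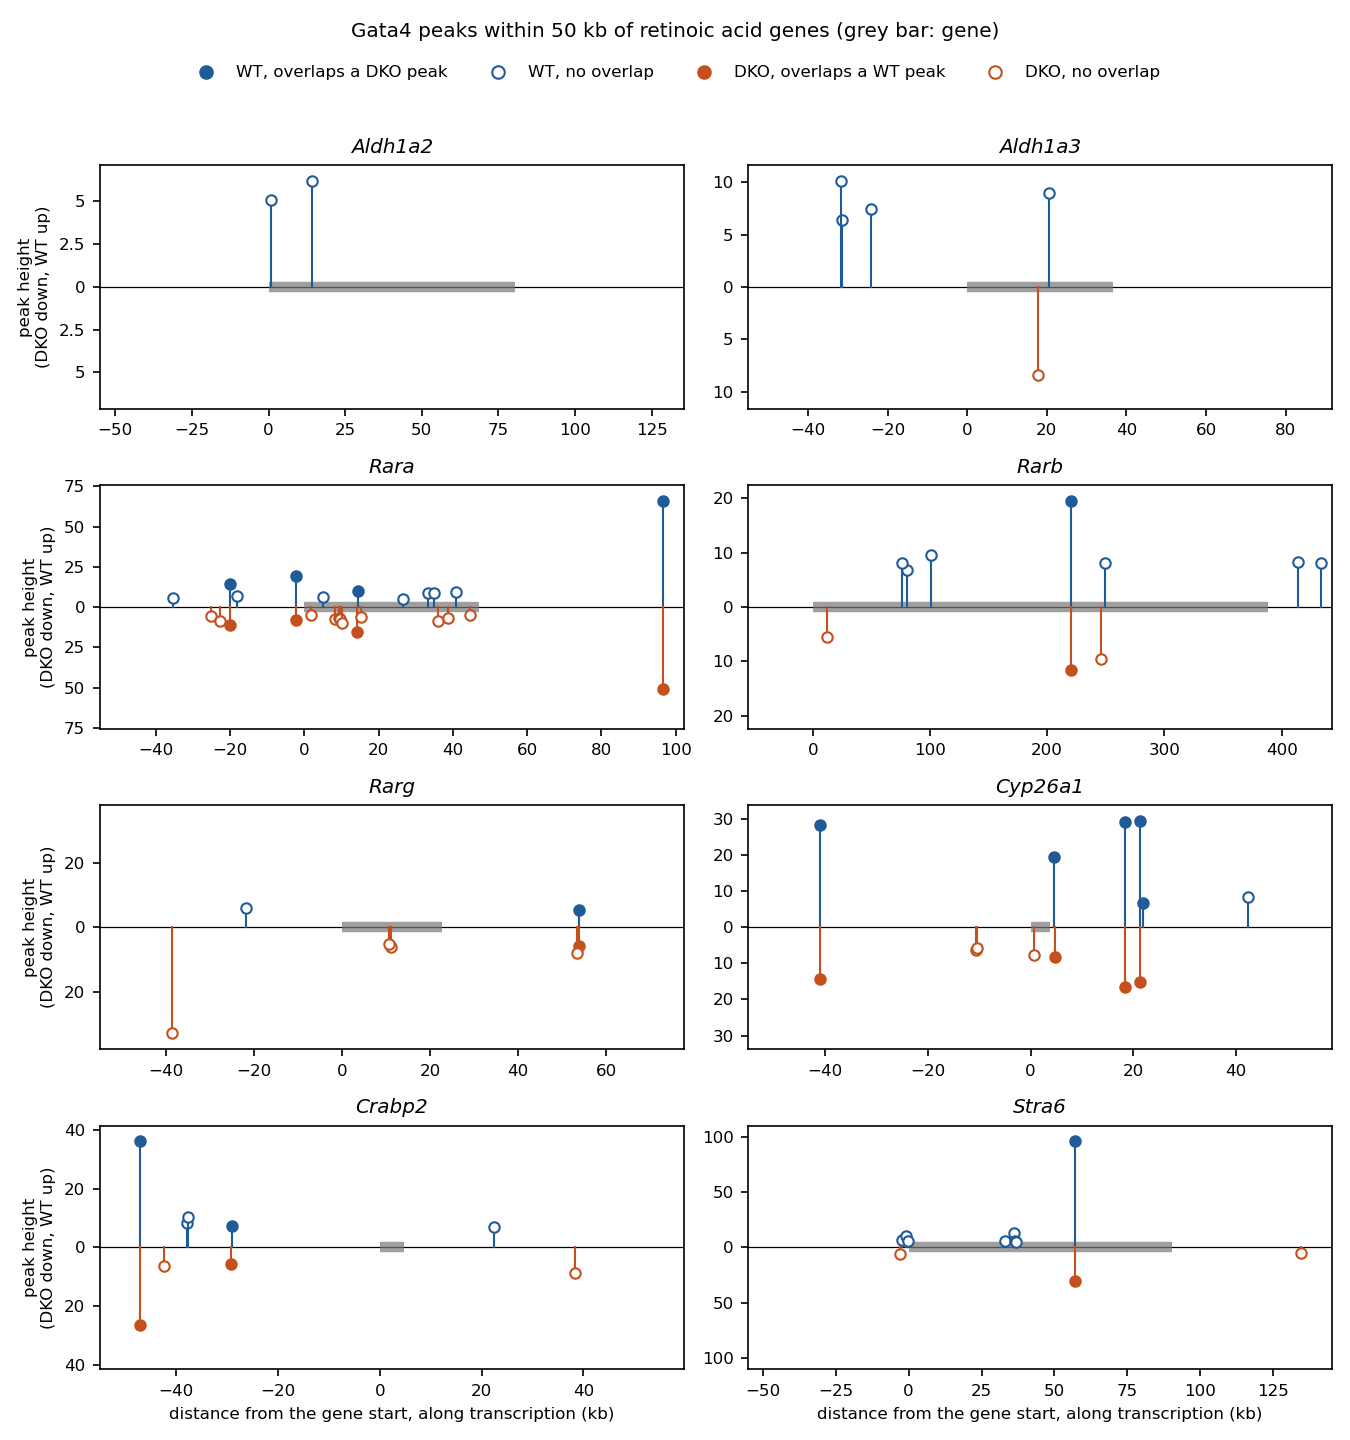
Height of each Gata4 peak (vertical axis, WT upward and DKO downward) against its distance from the gene start in kb, along the direction of transcription, for the 8 genes with a peak within 50 kb, with filled points for shared and open points for unshared peaks. The grey bar is the longest span of the gene in the annotation, the vertical scale differs between panels, and the tallest points are the shared peaks of *Stra6* (95.7 in WT) and *Rara* (65.8 in WT, at the start of *Top2a*).

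None of the peaks near the synthesis enzymes, 6 of WT and 1 of DKO, was shared. Over the whole lists, 54.4% of WT peaks and 54.9% of DKO peaks were unshared. *Aldh1a1* (chromosome 19, 20676451 to 20717952, plus strand) had no peak within 50 kb in either list. Its nearest WT peak lay 361917 bp upstream with a height of 5.13, and its nearest DKO peak 501397 bp downstream with a height of 5.01, both close to the lowest height the lists allow. The 501 bp around its start site hold 3 CpGs, against 71 at *Aldh1a2* and 46 at *Aldh1a3*.

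*Aldh1a2* (chromosome 9, 71063596 to 71144050, plus strand) had 2 WT peaks and no DKO peak, and the nearest DKO peak lay 238189 bp upstream. The WT peak at 71064325 is in the intron 729 bp past the start site, with a height of 5.08 against 0.486 in WT ES cells, and its window holds 2 motifs and 29 CpGs. The other, at 71077885 in an intron 14289 bp past the start, had a height of 6.19 against 1.62 in ES cells, with 1 motif 205 bp from the peak position and 7 CpGs. Both heights are low for the WT list, whose median is 7.74, and the peaks ranked 16962 and 9880.

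*Aldh1a3* (chromosome 7, 73535778 to 73572403, minus strand) had 4 WT peaks, all of them with WGATAA, and 1 DKO peak without it. In the WT list, the intron peak at 73551970 had a height of 9.0 against 1.32 in ES cells, with a motif 6 bp from its position. Upstream, from 24287 to 31607 bp before the start site, lay WT peaks at 73596690, 73603877 and 73604010 with heights of 7.43, 6.39 and 10.1. The last of these, with 3 motifs and an enrichment of 9.22, ranked 2672 of 20410 and was the best placed of the 4. Its window overlaps that of the peak at 73603877, and motifs are common to both. The DKO peak, at 73554522, lay 2552 bp from the WT intron peak in the same gene, with a height of 8.41 against 2.08 in ES cells.

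*Stra6*, the retinol receptor, had the tallest WT peak near any of the 9 genes. At 57968513 on chromosome 9 the height was 95.7 in WT Flk1(+) cells and 4.93 in WT ES cells. In the DKO list, 12 bp away at 57968501, it was 30.0 in Flk1(+) cells and 6.81 in DKO ES cells. The enrichment was thus 19.4 in WT and 4.41 in DKO, and the rank was 14 of 20410 and 1485 of 22733. The DKO height was 0.314 of the WT height, and 2.51% of the 9305 shared WT peaks had a lower ratio, while the ES height at the place was 1.38 times the WT value. The window holds 4 motifs and 7 CpGs, and all 4 are in the sequence shown above.

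This site lies 8382 bp upstream of the first start site of *Stra6* with a CCDS entry, at 57976895, and 1883 bp upstream of the start of *Ccdc33*, the gene the authors named for it. In the annotation it is also within an intron of longer *Stra6* transcripts without a CCDS entry, which extend the gene to 57911595 to 58001803. The other 7 WT peaks of *Stra6*, with heights from 5.18 to 12.6, were all WT-only and lay in introns of *Ccdc33*. Those at 57909303, 57910574 and 57911500, with heights of 6.21, 10.3 and 6.11, lie up to 2292 bp upstream of the longest transcript and hold 2, 2 and 1 motifs. The remaining 4, at 57944577, 57947883, 57948035 and 57948287, with heights of 5.56, 12.6, 5.90 and 5.18, hold none. The windows at 57947883, 57948035 and 57948287 overlap one another. The DKO list had a peak at 57908765 with a height of 6.12, 538 bp from a WT peak, and a peak in an exon of *Islr2* at 58046084 with a height of 5.35, both without a motif.

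*Crabp2*, which carries retinoic acid to the nucleus (chromosome 3, 87752588 to 87757298, plus strand), had no peak within 5 kb in either list. Its tallest peak lay 47190 bp upstream at 87705398, 4845 bp upstream of *Hdgf*, the gene the authors named for it. The height there was 36.1 in WT Flk1(+), 6.60 in WT ES, 26.5 in DKO Flk1(+) and 1.64 in DKO ES cells. The Flk1(+) heights of DKO and WT had a ratio of 0.735 and the ES heights a ratio of 0.248, so that the enrichment was 16.2 in DKO and 5.46 in WT. By rank it stood at 29 in DKO and at 1490 in WT, the opposite order to the *Stra6* site. The sequence, chosen after its values were seen, holds 2 motifs and no CpG in the stretch shown.
*Crabp2*, WT list, chr3:87705326-87705438: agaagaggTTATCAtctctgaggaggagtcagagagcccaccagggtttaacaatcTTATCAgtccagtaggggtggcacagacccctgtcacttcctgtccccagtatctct
The other *Crabp2* peaks were lower, and several were at starts of neighboring genes. A shared peak at the start of *Mrpl24* had heights of 7.38 (WT) and 5.60 (DKO). WT-only peaks lay in *Hdgf* at 87714621 and 87714853, in overlapping windows, with heights of 8.20 and 10.2. Another lay 67 bp upstream of *Nes* at 87774948, with a height of 6.98. DKO-only peaks lay 74 bp upstream of *Hdgf* at 87710169, with a height of 6.37 and 54 CpGs, and near *Bcan* at 87790883, with a height of 8.59.

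The receptor gene *Rara* (chromosome 11, 98789132 to 98836256, plus strand) had 11 WT and 15 DKO peaks within 50 kb, and as many were found at 0.72% of all genes for WT and at 0.724% for DKO. Just upstream, 2316 bp before its first start site, lay a shared peak at 98786816 with heights of 19.3 in WT Flk1(+), 3.17 in WT ES, 7.82 in DKO Flk1(+) and 1.57 in DKO ES cells. The DKO peak was 7 bp away, and its height was 0.406 of the WT height, a ratio that 8.19% of shared WT peaks fell below. The window holds 2 motifs, 3 bp from the position at the nearest, and 10 CpGs. The authors named *Cdc6* for this peak.

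In the introns of *Rara* a shared peak at 98803583 had the opposite order, with heights of 10.1 in WT Flk1(+), 2.45 in WT ES, 15.6 in DKO Flk1(+) and 4.42 in DKO ES cells, a ratio of 1.54. It holds no motif and 11 CpGs, and its ES height was also the higher in DKO. The other 5 WT peaks in the gene were WT-only. They lay at 98794240, 98815779, 98822525, 98823960 and 98830105, with heights of 6.17, 5.08, 8.46, 8.48 and 9.23, and 3 of the 5 hold a motif. Their enrichments were 5.39, 3.51, 3.26, 3.36 and 3.08, and they ranked 10003, 16963, 18484, 18188 and 18580 of 20410. The peak at 98822525 is 799 bp past the start site of the transcript Rara-004, without a motif and with 21 CpGs.

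The DKO list had 9 further peaks inside *Rara*, all DKO-only. A run of 4 of them, at 98797476, 98798544, 98798759 and 98799246, surrounds the start sites of the transcripts Rara-002 and Rara-001, from 1536 bp upstream to 214 bp downstream. Their heights were 7.35, 6.58, 7.56 and 9.73 and their ES heights 2.34, 1.88, 2.39 and 3.20. None holds the motif, and they hold 22, 16, 23 and 50 CpGs. The window at 98798759 overlaps those at 98798544 and 98799246, so some CpGs are counted more than once. They ranked from 19196 to 20657 of 22733, and the nearest WT peaks were from 3236 to 4519 bp away. The remaining 5, at 98790959, 98804422, 98825042, 98827932 and 98833829, had heights of 5.13, 6.38, 8.71, 6.53 and 5.08, and 2 of the 5 hold a motif.

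The tallest peak within 50 kb of *Rara* in each list was at the start of another gene. At 98885613, 110 bp upstream of *Top2a* and 49357 bp past the end of *Rara*, just inside the limit, the heights were 65.8 in WT Flk1(+), 9.89 in WT ES, 50.6 in DKO Flk1(+) and 9.56 in DKO ES cells. At the start of *Cdc6*, at 98769051, they were 14.5, 4.79, 10.9 and 2.40 in the same order, with 38 CpGs and no motif. A DKO-only peak at 98766521, 2594 bp upstream of *Cdc6*, had a height of 8.66, and the rest from 5 to 50 kb away, 2 of WT and 1 of DKO, had heights of 7.0 and 5.47 and of 5.46. Just outside the limit, the nearest peaks to *Stra6* lay 50615 bp (WT, height 9.46) and 54588 bp away (DKO, height 6.14).

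*Rarb* has a CCDS span from 17263356 to 17407986 on the minus strand of chromosome 14, and longer transcripts without CCDS extend it to 17651381. All its peaks hold WGATAA, 7 from WT and 3 from DKO. The shared peak at 17430919, in an intron of the longer transcripts and 22933 bp upstream of the CCDS start, had heights of 19.5 in WT Flk1(+), 3.16 in WT ES, 11.6 in DKO Flk1(+) and 2.32 in DKO ES cells, a ratio of 0.596 between the Flk1(+) heights. Inside the CCDS span each list had 1 peak, and these did not overlap. The WT peak at 17402148, 5838 bp past the start, had a height of 8.14 against 1.98 in ES cells. The DKO peak at 17405629, 2357 bp past the start, had a height of 9.58 against 1.70 in ES cells, with 3 motifs, the nearest 6 bp from its position. Its sequence is shown because it was the DKO-only peak near these genes with the highest enrichment, 5.63, a choice made after its values were seen.
*Rarb*, DKO list, chr14:17405564-17405669: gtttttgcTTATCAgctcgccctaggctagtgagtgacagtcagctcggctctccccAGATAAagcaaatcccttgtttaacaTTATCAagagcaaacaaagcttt
Far upstream in the long transcripts, the WT list had peaks at 17550493, 17571034 and 17575002 with heights of 9.64, 6.76 and 8.21, and the DKO list had a peak at 17638871 with a height of 5.44. The last 2 WT peaks, at 17217525 and 17237480 with heights of 8.08 and 8.29, lay in introns of *Top2b*, downstream of *Rarb*.

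*Rarg* (chromosome 15, 102065369 to 102087948, minus strand) had no WT peak within 5 kb and 2 DKO peaks, both at the start site of the transcript Rarg-002. The peak at 102076925, 6 bp past that start in an exon, had a height of 6.18 against 1.60 in ES cells, with 21 CpGs. The peak at 102077306, 375 bp upstream of that start, had a height of 5.26 against 1.67, with 28 CpGs. The enrichments were 3.87 at 102076925 and 3.15 at 102077306, and the ranks 8164 and 22490 of 22733. The windows of these 2 peaks overlap, and the motif each one holds, 149 and 232 bp from the positions, is the same stretch of the genome. The nearest WT peak lay 32551 bp from the nearer of them.

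Around *Rarg* the tallest peak was DKO-only, at 102126667, 57 bp upstream of *Espl1* and 38719 bp upstream of *Rarg*. It reached 32.8, against 6.44 in the DKO ES profile, and the nearest WT peak was 16810 bp from it. This was the tallest of all 25 DKO-only peaks near the 9 genes. A shared peak upstream of *Zfp740*, at 102034056, had heights of 5.47 in WT and 5.79 in DKO, with 61 CpGs, a DKO-only peak beside it at 102034635 had a height of 8.08, and a WT-only peak 30 bp upstream of *Mfsd5*, at 102109857, had a height of 6.04.

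*Cyp26a1*, the gene of the degrading enzyme, shared 5 of its 6 WT peaks and 4 of its 7 DKO peaks with the other list. It is a short gene of 3721 bp (chromosome 19, 37772298 to 37776018, plus strand), and 6.84% of all genes had as many WT peaks within 50 kb and 12.4% as many DKO peaks. All 6 WT peaks hold WGATAA. The nearest shared peak lay 920 bp past the end of the gene, at 37776938, with heights of 19.4 in WT Flk1(+), 2.90 in WT ES, 8.24 in DKO Flk1(+) and 1.60 in DKO ES cells. Its window holds 5 motifs, the most in any window near these genes, and the ratio of 0.425 was under that of all but 9.61% of shared WT peaks.

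Further off, 3 places had taller peaks. At 37731228, in an intron of *Exoc6* and 41070 bp upstream, the heights were 28.2 in WT Flk1(+), 3.49 in WT ES, 14.3 in DKO Flk1(+) and 2.24 in DKO ES cells, with 3 motifs. At 37793669, 21371 bp past the start site, they were 29.3, 3.99, 15.1 and 2.11 in the same order, with 2 motifs and no CpG. At 37790701, 18403 bp past the start, they were 29.0, 1.75, 16.6 and 1.03, with 1 motif and 1 CpG. The enrichment at this last site was 16.6 in WT and 16.0 in DKO, with ranks of 86 and 223. It was therefore high in both lists, while the Flk1(+) height in DKO was 0.572 of that in WT. The sequence, shown after its values were seen, has its motif 11 bp from the WT position.
*Cyp26a1*, WT list, chr19:37790661-37790741: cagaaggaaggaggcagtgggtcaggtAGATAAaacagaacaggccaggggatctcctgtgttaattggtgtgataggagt
A smaller WT peak at 37794154, with a height of 6.65, overlapped the DKO peak of height 15.1 at 37793681, 473 bp away, which is nearer to the taller WT peak. The only WT-only peak, at 37814683, had a height of 8.48.

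The DKO-only peaks at *Cyp26a1* held no WGATAA and from 31 to 40 CpGs. Over all DKO-only peaks, 30.3% held WGATAA and the median was 21 CpGs. The peak at 37772875, 577 bp past the start site in an exon, had a height of 7.70 against 2.48 in ES cells and ranked 20560. It holds 33 CpGs and no WGATAA, and the 501 bp around the start site hold 45 CpGs. The other 2, at 37761730 and 37761909 in the neighboring *Cyp26c1*, had heights of 6.42 and 5.70, with 40 and 31 CpGs and no motif. Their windows overlap.

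**Figure D2:**
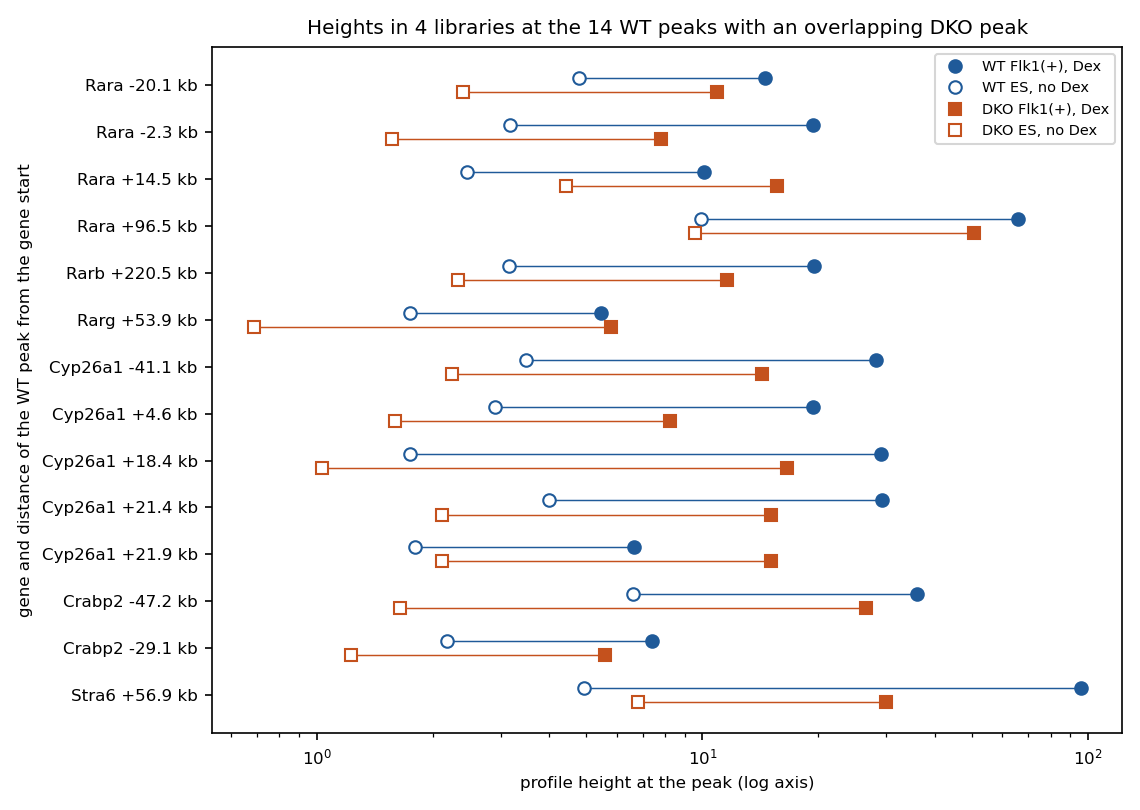
Profile heights (log axis) in WT Flk1(+), WT ES, DKO Flk1(+) and DKO ES libraries at the 14 WT peaks with an overlapping DKO peak, each labelled by gene and distance of the WT peak from the gene start in kb, with 1 point per library and a line joining the libraries of a genotype. The WT Flk1(+) height exceeded the DKO height at 11 of the 14, and *Stra6* had the widest gap, from 95.7 to 30.0.

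Peak heights at the shared positions were lower in DKO for 11 of 14 WT peaks, with a median ratio of DKO to WT of 0.665. Over all 9305 shared WT peaks the median ratio was 0.823 and 69.3% were lower in DKO, so most shared peaks leaned the same way. The exceptions were the *Rara* intron peak (1.54), the peak upstream of *Zfp740* near *Rarg* (1.06) and the small *Cyp26a1* peak at 37794154 (2.27). ES heights had a median DKO to WT ratio of 0.577 at the 14 peaks and 0.708 over all shared peaks. Depth and scale of the libraries cannot be told apart from genotype in these ratios.

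**Figure D3:**
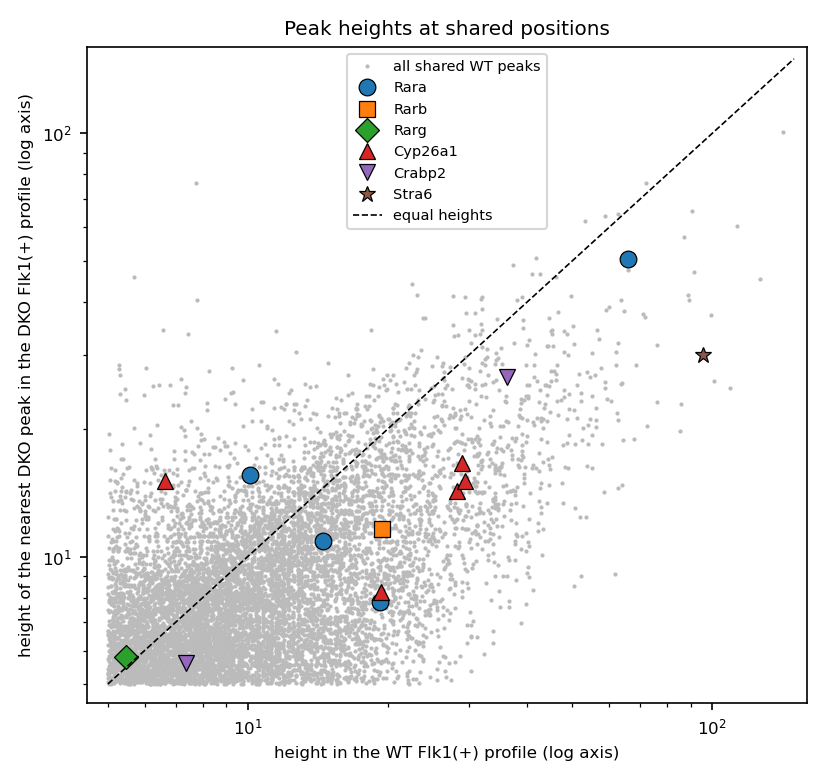
Height of each shared WT peak in the WT Flk1(+) profile (horizontal) against the height of the nearest DKO peak in the DKO Flk1(+) profile (vertical), both on log axes, in grey for all 9305 and by symbol for the 14 near retinoic acid genes. The dashed line marks equal heights, and 11 of the 14 symbols lie below it.

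Of the 45 WT peaks, 31 were WT-only, which is 68.9% (95% Wilson interval 54.3% to 80.5%), where 54.4% of all WT peaks were. Of the 38 DKO peaks, 25 were DKO-only, which is 65.8% (49.9% to 78.8%), where 54.9% of all DKO peaks were. These intervals cover counting error only, and peaks of a gene are not independent. WT-only peaks had a median height of 7.43 (from 5.08 to 12.6) and shared WT peaks one of 19.4 (from 5.47 to 95.7). DKO-only peaks had a median of 6.53 (from 5.08 to 32.8) and shared DKO peaks one of 14.3 (from 5.60 to 50.6). The unshared peaks of either list were thus mostly low. Over all peaks the medians were 6.69 for WT-only and 10.1 for shared WT peaks. For DKO-only and shared DKO peaks they were 6.4 and 7.82, so lower unshared peaks were not particular to these genes.

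WGATAA was held by 31 of 45 WT peaks, which is 68.9% (54.3% to 80.5%), and by 17 of 38 DKO peaks, which is 44.7% (30.1% to 60.3%). Over all peaks the shares were 61.9% and 38.1%. Among the DKO-only peaks 8 of 25 (32.0%) held it and among the WT-only peaks 21 of 31 (67.7%), close to 30.3% and 69.5% over all peaks of these classes. The windows had a median of 9 CpGs in WT and 14.5 in DKO, beside 8 and 21 over all peaks. The median was 21 CpGs for the DKO-only peaks near the 9 genes, the same as for all DKO-only peaks, and 9 for the WT-only peaks, beside 6 for all of them. Of the 25 DKO-only peaks, 13 (52.0%) held 20 CpGs or more, beside 51.8% of all DKO-only peaks.

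**Figure D4:**
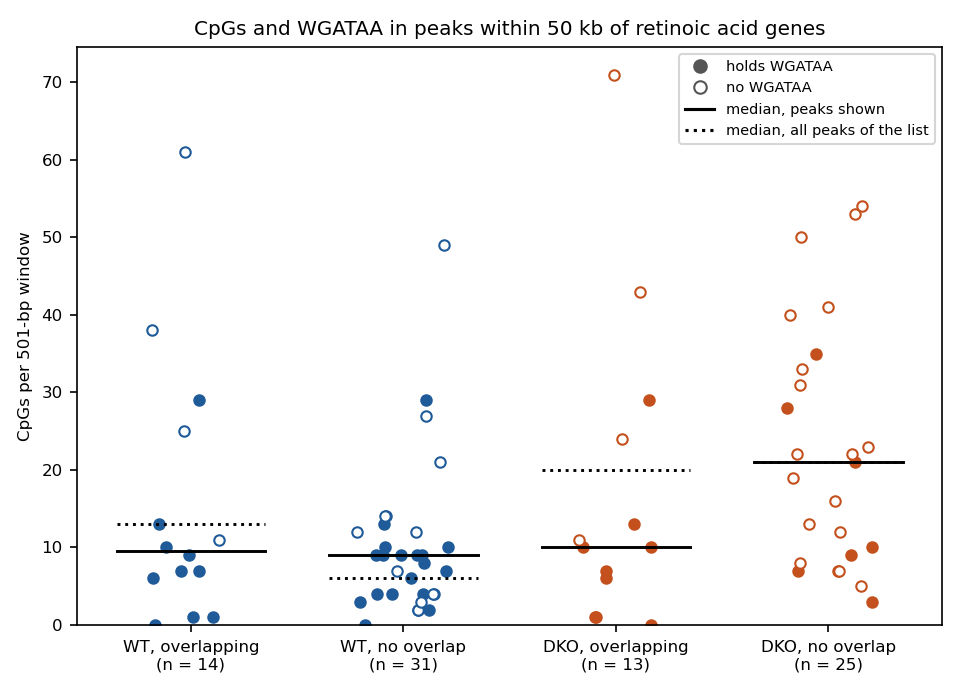
CpGs per 501-bp window for each peak within 50 kb of the 9 genes, by list and by whether a peak of the other list overlaps it, with filled points for windows that hold WGATAA and open points for those that do not. Solid lines are medians of the points shown and dotted lines medians of all peaks of that kind, and the median was 21 CpGs for DKO-only and 9 for WT-only peaks.

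By place, 19 of the 45 WT peaks lay inside a gene of the 9, 5 within 5 kb outside it and 21 from 5 to 50 kb away. For the DKO peaks these counts were 18, 3 and 17. Within 1 kb of a CCDS start site of the 9 genes lay 2 WT peaks, at 2 genes, and 6 DKO peaks, at 3 genes. Of all genes, 22.6% had such a WT peak and 35.7% such a DKO peak. Within 1 kb of the start of another gene lay 5 peaks in each list. These places were not counted over all peaks of the lists. The authors' own gene names assigned 11 WT and 15 DKO peaks to the 9 genes, and most of these, 6 and 9, were at *Rara*.

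Promoters of the 9 genes were also searched for the response element of the receptors, a direct repeat of the half-site spaced by 5 bases (DR5), in which the half-site was taken as A or G, then G, G or T, TCA. Within 1 kb of a CCDS start site, *Rarb*, *Cyp26a1* and *Rara* had 1 match each, where 0.576% of 25332 start sites of all genes had any. That share counts start sites and not genes. The 9 genes were picked for their link to retinoic acid, with known receptor targets among them, so the comparison is no test. The 3 matches are shown because it is through such elements that the receptors act. Each is on the strand on which the half-sites read forward, with the half-sites in capitals.
*Rarb*, chr14:17408027-17408043, minus strand: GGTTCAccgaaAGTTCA
*Cyp26a1*, chr19:37772266-37772282, minus strand: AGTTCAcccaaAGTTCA
*Rara*, chr11:98821322-98821338, plus strand: AGTTCAgcaagAGTTCA
None of the 3 lay in a peak window. The *Rarb* element, 49 bp upstream of the start, was 5887 bp from the nearest WT peak and 2406 bp from the nearest DKO peak. The *Cyp26a1* element, 24 bp upstream of the start, was 4664 bp from the WT peak past the gene end and 601 bp from the DKO-only peak in the exon. The *Rara* element, 396 bp upstream of the Rara-004 start, was 1195 bp from a WT peak and 3712 bp from a DKO peak. Direct repeats spaced by 1, 2 or 5 bases were found in 1 peak window of each list, both at the *Cyp26a1* site past the gene end, with a spacing of 2. Over all peaks 0.882% of WT and 0.959% of DKO windows held such a repeat. A match is a description of the letters, and binding of the receptors was not measured.

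The other genes of the pathway, a list of 25, were counted within 5 kb. A WT peak lay near 14 and a DKO peak near 16, beside the 39.4% and 49.1% of all genes. Both lists had a peak at 11, the WT list alone at 3, the DKO list alone at 5 and neither at 6. Within 1 kb of a coding start site, a peak lay at 3 of the 25 genes for WT and at 13 for DKO, beside the 22.6% and 35.7% of all genes. The 3 genes of the WT list (*Rbp2*, *Adh5* and *Rdh11*) were among the 13 of the DKO list.

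*Rbp2*, a cellular retinol-binding protein, had the tallest of these promoter peaks, at 98390161 in both lists, 795 bp upstream of the start, with heights of 12.6 in WT and 8.97 in DKO, 2 motifs and 4 CpGs. *Adh5*, an alcohol dehydrogenase gene, was the other of the 8 tallest with a shared peak, with heights of 7.89 and 7.54 in WT and 8.62 and 8.21 in DKO. For the other 6 the promoter peaks were DKO-only. *Rdh10*, which oxidises retinol to retinaldehyde, had a height of 9.80 at 644 bp upstream of its start, with 56 CpGs. The receptor partners *Rxrg* and *Rxrb* had heights of 9.30 and 7.90, with 28 and 63 CpGs. The receptor cofactors *Ncor1*, *Ncoa1* and *Nrip1* had heights of 9.58, 8.60 and 7.24, with 34, 77 and 50 CpGs. None of these 6 tallest windows held WGATAA.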

How the data were processed

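Gata4 ChIP-seq peaks were analysed from 4 libraries, 1 per condition. The submitters' processing notes name CASAVA 1.8.1, cutadapt and mm9. The aligner is not given in the sources used here. The authors called peaks with DNAnexus tools for either genotype by setting its Flk1(+) library against its ES library, with no pooling. The deposited signal of a peak is its height in each profile, the deposited ratio (enrichment) takes an ES height under 1 as 1, and the deposited −log10 q-value and the authors' score, a rank, order the peaks within a list. Since the columns carry no library name, the genotype of a list was taken from its peak count as stated in the study. Read depth was not available from the lists, and its effect on heights is unknown. For the Flk1(+) libraries the study states the mapped reads, with more for DKO than for WT.

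All 501-bp windows (100.0%) equalled the plus strand of mm9 (NCBIM37). Genes, start sites and CCDS entries came from GENCODE vM1, with the longest span per gene. Windows overlapping by 1 bp or more count as shared. WGATAA and direct repeats were searched on both strands. Shares carry 95% Wilson intervals. No test was made, since no condition has a replicate, and counts were set beside all genes or all peaks. All peaks within 5 kb of a gene were named, those from 5 to 50 kb in full where among the 3 tallest of the gene in a list, and of the other pathway genes up to 8, by height of a peak within 1 kb of a start site. Sequences were shown for the tallest peak with WGATAA within 5 kb of a gene, apart from an item not reported here, and for peaks of 1 list within 1 kb of a start site. The members and lists were chosen with earlier results of these data known. Alternatives changed distances, overlap, motif, window, gene span and the part of each list used. Sharing, motif and distance steps were tested on simulated data. Python 3.11.15, NumPy 2.4.6, pandas 2.3.3, SciPy 1.17.1 and Matplotlib 3.10.9 were used.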

Additional observations from a re-analysis of the deposited data

How the results depend on the processing

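Of 78 alternative values, 61 stayed close to the reported ones and 17 moved. A count was taken as close when it was within a factor of 1.5 of the reported one. By this wide rule, 57 DKO peaks within 100 kb were still close to the 38 within 50 kb. With the better-ranked 50% of each list alone, peaks within 50 kb numbered 22 in WT and 21 in DKO. Of these, 90.9% of WT and 61.9% of DKO peaks held WGATAA, while 54.5% were WT-only and 42.9% DKO-only. Median heights were 9.86 and 9.58, and median enrichments were 6.52 and 5.01. The other pathway genes with a peak within 5 kb numbered 9 in WT and 10 in DKO. Shares and medians over all better-ranked peaks or over all genes are not given, so these values cannot be called particular to these genes. The distance mattered as well: within 20 kb of a gene lay 29 WT and 26 DKO peaks. A count within 5 kb of the start of the gene's longest span left out other start sites. It gave a WT peak at 4 of the 9 genes and a DKO peak at 3. Of the 25 pathway genes, 9 had a WT peak by that rule and 15 a DKO peak. The share of all genes with a peak by that rule is not given, so these counts have no baseline. Allowing G as well as A at the last base (WGATAR) raised the share of DKO peaks with the motif to 60.5%. Direct repeats with a spacing of 5 bases alone gave 0 peaks in WT and 0 in DKO. Gene spans of CCDS transcripts alone, an alternative chosen after seeing the data, left 39 WT and 36 DKO peaks. No paired analysis was possible because each condition has 1 library and no result comes from a test. With 1 library per condition and heights whose scaling is not known, neither the spread of a height nor signal under the calling threshold could be given.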
